A study of Homo sapiens with 8 samples.

Results

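GSTZ1, the zeta class glutathione transferase, was examined together with FAH, the enzyme that follows it in tyrosine breakdown, and with 7 other glutathione transferase genes: GSTM3, GSTK1, GSTO1, GSTP1, MGST1, MGST2 and MGST3. These 9 genes, of 19035 gene symbols in the expression table, were taken by name. The list was chosen by the fall of GSTZ1 TPM in these same libraries (to 36.9% of its sgEmpty mean), so every difference of the 9 between the groups is given as a description, without a test. The cells were of the human breast cancer line KPL-1 with an inducible Cas9 (iCas9), collected on day 7 of doxycycline. The sgSETD1A cells (3 libraries, genotype label SETD1A knockout) carried a guide against SETD1A, a histone H3 lysine 4 methyltransferase, and the sgEmpty cells (3 libraries, genotype label WT) carried the guide vector without a target. Both groups therefore had Cas9 and doxycycline, and the labels do not say whether replicates were separate cultures or how many guides stand behind sgSETD1A.

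Glutathione transferases join the tripeptide glutathione to reactive or foreign molecules, and several classes with different folds share the name. The zeta class is unusual: GSTZ1 is maleylacetoacetate isomerase, which turns maleylacetoacetate into fumarylacetoacetate in the breakdown of tyrosine, and it also dechlorinates dichloroacetate. FAH then splits fumarylacetoacetate into fumarate and acetoacetate. The liver is the main site of the pathway, and loss of FAH causes the liver disease tyrosinaemia type I.

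SETD1 complexes are recruited to unmethylated CG-rich promoters. The promoter windows of GSTZ1, of GSTM3 (the transferase among the 9 that was higher by the most) and of GSTP1 (listed at 0) are shown, from RefSeq on GRCh38.p14, with each CG in capitals. These genes were picked by their values, and a part of CG content in the differences was not tested. Each window runs from upstream of the gene start into its first bases. RefSeq windows were found for 8 of the 9 genes; MGST2 had none.
GSTZ1 (chr14:77320786-77321085, + strand): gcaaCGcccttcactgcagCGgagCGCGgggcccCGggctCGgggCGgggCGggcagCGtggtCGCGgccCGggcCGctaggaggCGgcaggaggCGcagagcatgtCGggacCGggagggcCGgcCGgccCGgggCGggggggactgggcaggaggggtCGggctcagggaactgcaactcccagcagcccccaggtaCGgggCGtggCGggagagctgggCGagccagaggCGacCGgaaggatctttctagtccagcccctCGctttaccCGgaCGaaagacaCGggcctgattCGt
GSTM3 (chr1:109740989-109741288, - strand): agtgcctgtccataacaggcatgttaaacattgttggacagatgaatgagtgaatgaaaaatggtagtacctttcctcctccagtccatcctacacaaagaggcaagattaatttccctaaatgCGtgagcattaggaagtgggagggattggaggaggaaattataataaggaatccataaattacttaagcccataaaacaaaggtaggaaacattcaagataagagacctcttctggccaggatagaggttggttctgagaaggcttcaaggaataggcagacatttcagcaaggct
GSTP1 (chr11:67583562-67583861, + strand): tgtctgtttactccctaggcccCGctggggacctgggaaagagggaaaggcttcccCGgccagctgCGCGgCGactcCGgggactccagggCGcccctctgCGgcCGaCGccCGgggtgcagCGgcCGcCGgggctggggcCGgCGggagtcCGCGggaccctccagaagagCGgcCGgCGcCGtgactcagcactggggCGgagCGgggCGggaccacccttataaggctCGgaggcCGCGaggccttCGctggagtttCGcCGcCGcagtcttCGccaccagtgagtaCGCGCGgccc
The GSTZ1 window held 33 CG pairs in 300 bases, the GSTP1 window 36 and the GSTM3 window 1, against a median of 14 over 35116 RefSeq promoter windows. The GSTZ1 count was above that of 82.8% of those windows, the GSTP1 count above that of 87.3% and the GSTM3 count above that of 3.96%. Windows of FAH (2 entries, 19 and 24 CG pairs), MGST3 (22), GSTO1 (19) and GSTK1 (17) lay between them, and the 3 entries of MGST1 held 4, 18 and 19. The window of POMT2, a gene head to head with GSTZ1 that was not lower, held 31. The antioxidant response element, the site of the stress factor NRF2, was searched as TGACNNNGC on both strands, the only motif searched, and 13.4% of all windows held it. It was found in GSTP1 once (TGACTCAGC), in GSTO1 at 2 places, in 1 of the 2 FAH windows and in 1 of the 3 MGST1 windows, and its letters were not in the windows of GSTZ1, GSTM3, GSTK1 or MGST3. A match is a match of letters only.

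The transcript that the guide targets was lower with it. SETD1A had 9.36, 11.3 and 10.7 TPM in the sgSETD1A libraries, against 17.5, 17.5 and 18.1 TPM in the sgEmpty libraries (TPM is transcript abundance per length, scaled to a common total), a log2 difference of -0.71 (limma adjusted p = 9.13e-05; SE 0.071). All 10 breast luminal epithelium markers averaged at least 1 TPM, led by KRT8, and their sum was 23217 to 23858 TPM in sgSETD1A and 22405 to 23875 TPM in sgEmpty libraries. Single markers moved with the groups: 6 of the 10 rose, TFF1 fell by 0.32 log2 (limma adjusted p = 1.23e-04) and 3 did not pass, with KRT18 leading the rises at 0.26 log2 (limma adjusted p = 4.06e-04); their part in the differences below was not tested. Hepatocyte markers, checked because the tyrosine pathway belongs to liver, summed to 3.79 to 4.69 TPM in sgSETD1A and 2.53 to 3.29 TPM in sgEmpty libraries, with 1 of 8 at 1 TPM or more (SERPINA1) and 2 at 0 in every library. SERPINA1, the only hepatocyte marker tested, rose by 0.44 log2 (limma adjusted p = 0.0171). Immune markers summed to at most 2.21 TPM in sgSETD1A and 2.07 TPM in sgEmpty libraries, and fibroblast and endothelial markers to at most 5.08 TPM in sgSETD1A and 4.35 TPM in sgEmpty libraries. Library sgSETD1A 1 stood slightly apart from the other sgSETD1A libraries, with correlations of 0.9956 and 0.9954 across genes, against 0.9977 between those. Of 11885 tested genes 3327 rose and 1605 fell, with a median log2 difference of 0.073; with libraries rescaled by median ratios 1835 rose and 2284 fell, and with quantile normalization 2142 and 2056.

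GSTZ1 was the member that differed most between the groups. It had 50.5, 49.1 and 50.7 TPM in the sgSETD1A libraries, against 133, 138 and 136 TPM in the sgEmpty libraries. The groups were far apart, and the libraries of each group lay close together, with a coefficient of variation of 1.66% in sgSETD1A and 1.84% in sgEmpty. The means were 50.1 ± 0.83 TPM in sgSETD1A and 135.7 ± 2.49 TPM in sgEmpty cells (SD, n = 3 each), a log2(TPM + 1) difference of -1.42 (SE 0.036). It ranked 3 from the lowest of 11885 tested genes (between 1 and 9 under the other settings), and 25 genes were lower by at least 1 log2. In bulk RNA, fewer cells that express a gene and less of its RNA per cell cannot be told apart.

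**Figure D1:**
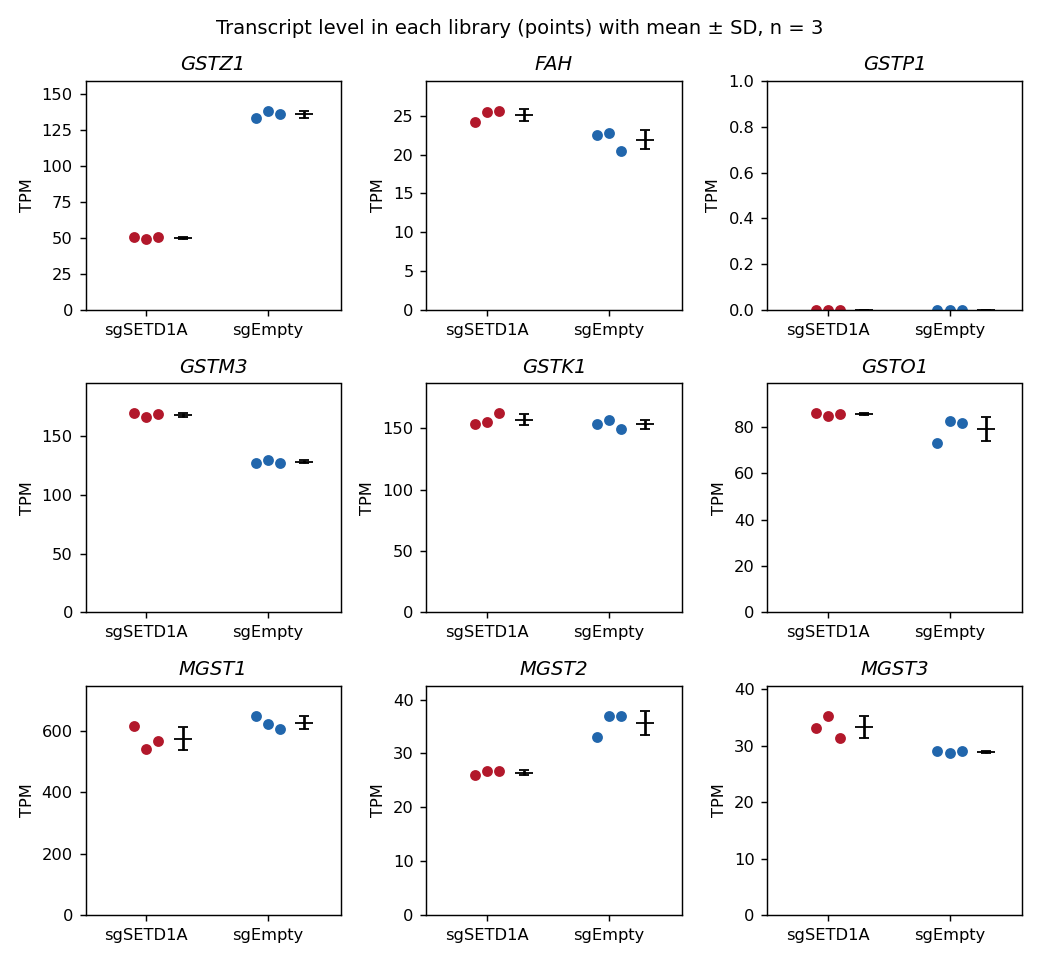
TPM of each of the 9 genes in every library (points; sgSETD1A in red on the left, sgEmpty in blue on the right), with the mean and SD beside them and each axis starting at 0. The sgSETD1A points of GSTZ1 lie near 50.1 TPM and its sgEmpty points near 135.7 TPM, while the other axes show much smaller steps and GSTP1 lies at 0.

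FAH was slightly higher in sgSETD1A cells, the opposite direction to GSTZ1. It had 24.2, 25.5 and 25.6 TPM in sgSETD1A libraries, against 22.5, 22.7 and 20.5 TPM in sgEmpty libraries, without overlap between the groups. The means were 25.1 ± 0.76 TPM in sgSETD1A and 21.9 ± 1.23 TPM in sgEmpty cells (SD, n = 3 each), a log2 difference of 0.19 (SE 0.056). Such a step was common: FAH ranked 8765 from the lowest of 11885 tested genes, whose median was 0.073. Of all tested genes, 36.4% were higher without overlap. The ratio of GSTZ1 to FAH transcripts, both per length, was 2.08, 1.93 and 1.98 in sgSETD1A libraries, against 5.91, 6.08 and 6.62 in sgEmpty libraries. FAH stayed higher in sgSETD1A under every other processing tried, with differences from 0.12 to 0.21.

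GSTM3, GSTK1 and GSTO1, which are soluble enzymes, were level with sgEmpty cells or higher. GSTM3, a mu class enzyme, had 169.6, 166.2 and 169.2 TPM in sgSETD1A libraries, against 127.6, 129.7 and 127.4 TPM in sgEmpty libraries, with no overlap. Its log2 difference was 0.39 (SE 0.032), and the sgSETD1A mean was 131.3% of the sgEmpty mean. Reads may be split among the similar mu class genes, so the value of GSTM3 is uncertain. GSTK1, the kappa class enzyme of mitochondria and peroxisomes, had 153.3, 155.5 and 162.2 TPM in sgSETD1A libraries, against 153.8, 157.0 and 149.3 TPM in sgEmpty libraries. Its groups overlapped, and its difference of 0.033 log2 (SE 0.037) turned to -0.040 with median-ratio rescaling and -0.030 with quantile normalization. GSTO1, the omega class enzyme that reduces dehydroascorbate, had 85.7, 84.8 and 85.6 TPM in sgSETD1A libraries, against 73.1, 82.6 and 81.5 TPM in sgEmpty libraries. Its groups did not overlap, but library sgEmpty 1 was the low one, and without it the difference of 0.11 log2 (SE 0.049) was 0.057. GSTP1, the pi class enzyme that many tissues express strongly, was listed at 0 TPM in all 6 libraries.

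The 3 membrane-bound microsomal enzymes differed in direction. MGST1, the most abundant of the 9, had 616.5, 541.7 and 566.7 TPM in sgSETD1A libraries, against 649.7, 624.5 and 606.3 TPM in sgEmpty libraries, and its groups overlapped. Its log2 difference was -0.13 (SE 0.047). MGST2, which can make leukotriene C4, had 25.9, 26.6 and 26.7 TPM in sgSETD1A libraries, against 33.0, 36.9 and 37.0 TPM in sgEmpty libraries. It was the other clear decrease among the 9, with no overlap, a sgSETD1A mean at 74.2% of the sgEmpty mean and a log2 difference of -0.42 (SE 0.055). MGST3, a related enzyme with peroxidase activity, had 33.2, 35.3 and 31.5 TPM in sgSETD1A libraries, against 29.0, 28.7 and 29.1 TPM in sgEmpty libraries, a difference of 0.20 log2 (SE 0.052) with no overlap.

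Among the 8 members that passed the filter on low values, 4 were higher and 2 lower without overlap between the groups, where 53.7% of all tested genes did not overlap (36.4% higher, 17.3% lower). At the adjusted p threshold of 0.05, 3 of the 8 were on the higher side and 2 on the lower, where 41.5% of all tested genes passed it (28.0% higher, 13.5% lower). The members were listed on this contrast, so nothing is read from these counts. GSTP1 did not pass the filter.

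**Figure D2:**
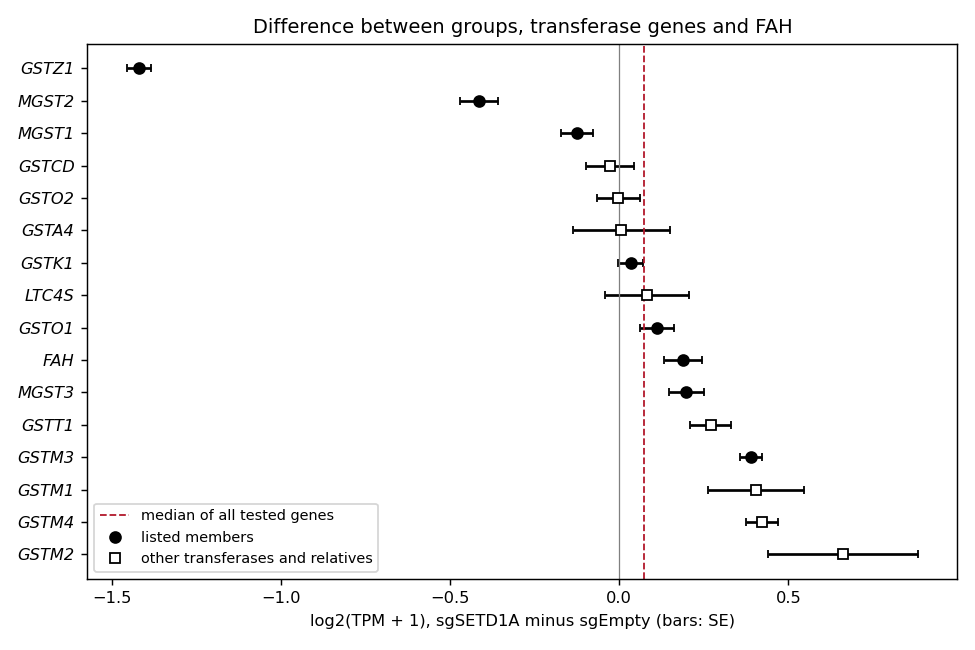
Difference in log2(TPM + 1), sgSETD1A minus sgEmpty, with its SE, for the 8 members that were tested (filled circles) and 8 other transferases and relatives (open squares); the dashed line is the median of all tested genes, 0.073. GSTZ1 at -1.42 lies apart from the rest, which run from -0.42 for MGST2 to 0.66 for GSTM2.

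By level, MGST1 led in both groups, and GSTP1 was last. In sgEmpty cells the order after MGST1 was GSTK1 (153.4 ± 3.84 TPM), GSTZ1 (135.7 ± 2.49), GSTM3 (128.3 ± 1.29), GSTO1 (79.1 ± 5.19), MGST2 (35.6 ± 2.29), MGST3 (28.9 ± 0.21) and FAH (21.9 ± 1.23; SD, n = 3). In sgSETD1A cells GSTM3 (168.3 ± 1.82 TPM) was first after MGST1, before GSTK1 (157.0 ± 4.66) and GSTO1 (85.4 ± 0.51), and GSTZ1 came only after GSTO1. Below it came MGST3 (33.3 ± 1.93 TPM), MGST2 (26.4 ± 0.44) and FAH (25.1 ± 0.76; SD, n = 3). In neither order did the libraries of neighbouring genes overlap, but MGST2 and FAH came close in sgSETD1A cells, with a lowest MGST2 library of 25.9 TPM and a highest FAH library of 25.6 TPM.

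Over the 21 transferase genes of the table (the 8 here and 13 others of the alpha, mu, omega and theta classes), summed transcripts were 1307, 1242 and 1272 TPM in sgSETD1A libraries, against 1345, 1355 and 1316 TPM in sgEmpty libraries. The sum was a little lower in every sgSETD1A library, but it includes GSTZ1, the gene chosen for its fall. Its mean was 1274 TPM in sgSETD1A and 1338 TPM in sgEmpty cells, a smaller step than that of GSTZ1 alone (50.1 and 135.7 TPM). In these TPM values the other transferases together were thus not lower on average. This was not computed library by library or after either rescaling. The log2 difference of MGST1, the largest part of the sum, was -0.20 with median-ratio rescaling, against -0.13 without it. GSTZ1 made up 3.93% ± 0.066 of that sum in sgSETD1A and 10.1% ± 0.21 in sgEmpty cells (SD, n = 3 each). The share of GSTM3 was 13.2% ± 0.22 in sgSETD1A and 9.58% ± 0.098 in sgEmpty cells, and that of MGST1 was 45.1% ± 1.83 in sgSETD1A and 46.8% ± 1.28 in sgEmpty cells (SD, n = 3 each).

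**Figure D3:**
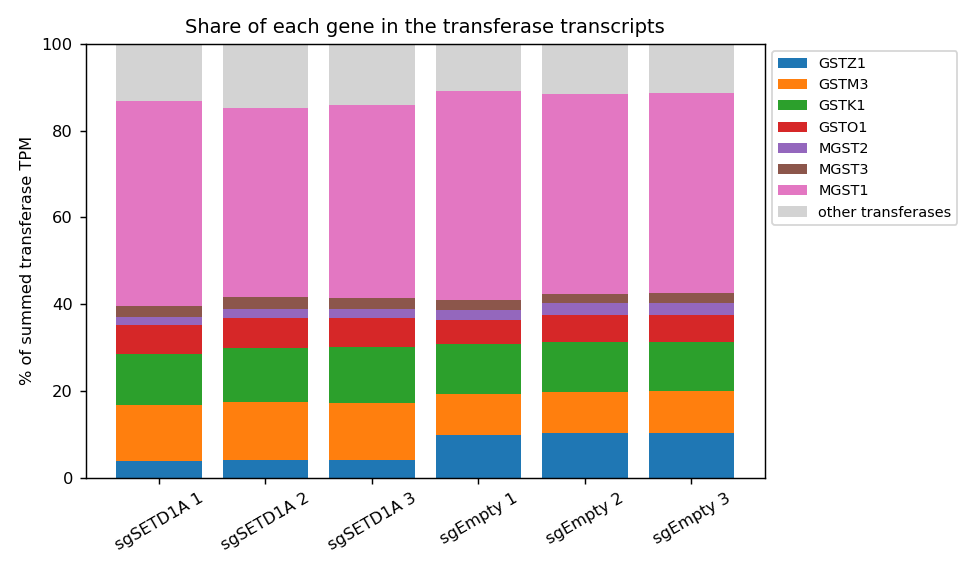
Share of the summed TPM of 21 transferase genes taken by each gene, in percent, one bar for each library (3 sgSETD1A, then 3 sgEmpty). The GSTZ1 segment at the bottom is 3.93% on average in sgSETD1A and 10.1% in sgEmpty libraries, and MGST1 is the largest segment in all 6.

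The other transferases and relatives either rose or did not pass the test. Of 18 listed, 8 were tested, 4 rose, none fell (limma; 0 also at an unadjusted p under 0.05) and 4 did not pass, with a median log2 difference of 0.18, against 0.073 over all tested genes, of which 28.0% rose and 13.5% fell; 6 of the 18 were at 0 in every library. GSTM4 had 56.5, 60.6 and 62.8 TPM in sgSETD1A libraries, against 44.5, 44.8 and 44.2 TPM in sgEmpty libraries, a rise of 0.42 log2 (limma adjusted p = 1.85e-04; SE 0.047). GSTT1, a theta class enzyme, averaged 38.1 ± 2.23 TPM in sgSETD1A and 31.4 ± 1.96 TPM in sgEmpty cells (SD, n = 3 each), a rise of 0.27 log2 (limma adjusted p = 0.00686). The less stable rises were those of GSTM2, by 0.66 log2 (limma adjusted p = 0.0378; SE 0.22), and GSTM1, by 0.40 log2 (limma adjusted p = 0.0441; SE 0.14). GSTM2 had 5.61, 10.4 and 11.1 TPM in sgSETD1A libraries, against 4.29, 6.78 and 4.57 TPM in sgEmpty libraries, so its groups overlapped through library sgSETD1A 1. Without sgSETD1A 3 the GSTM1 difference was 0.24, and with a pseudocount of 5 it was 0.21. The calls of GSTM2 and GSTM1 were both lost without sgSETD1A 2 (adjusted p = 0.120 and 0.0717), sgSETD1A 3 (0.122 and 0.133), sgEmpty 1 (0.127 and 0.125) or sgEmpty 3 (0.109 and 0.0602), which each time left 2 rises in the list, as did median-ratio rescaling. That of GSTM1 was also lost without sgEmpty 2 (0.105). The mu class genes, GSTM3 among them, lie in one cluster and have similar sequences, so reads may be split among them and the value of each is uncertain.

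The enzymes that lead to GSTZ1 in tyrosine breakdown were listed near 0, although GSTZ1 and FAH were not. TAT, the first enzyme of tyrosine breakdown in liver, averaged 0.087 ± 0.0060 TPM in sgSETD1A and 0.076 ± 0.053 TPM in sgEmpty cells (SD, n = 3 each). HPD, which makes homogentisate, had 0.178, 0.523 and 0.183 TPM in sgSETD1A libraries, against 0.193, 0.349 and 0.184 TPM in sgEmpty libraries. HGD, which opens its ring and yields the substrate of GSTZ1, had 0.120, 0.353 and 0.185 TPM in sgSETD1A libraries, against 0.455, 0.235 and 0.373 TPM in sgEmpty libraries. These 3 genes overlapped between groups and fell under the filter, so they were not tested.

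**Figure D4:**
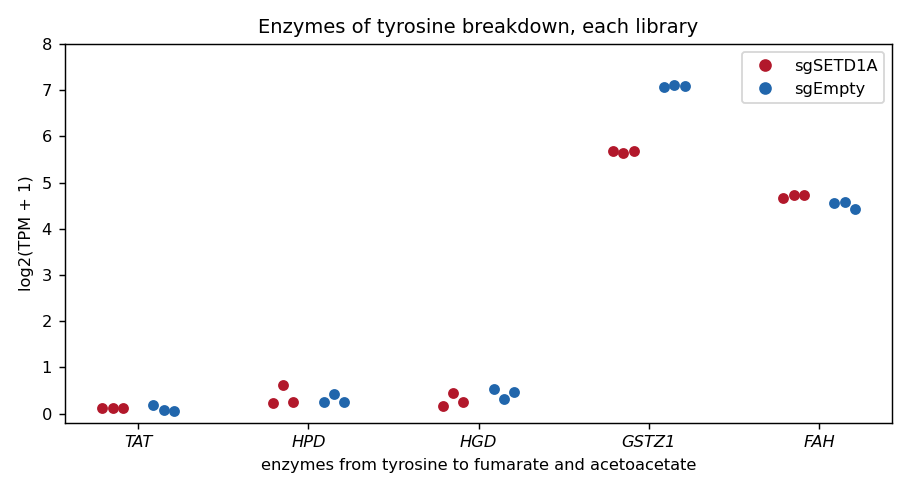
Level in log2(TPM + 1) of TAT, HPD, HGD, GSTZ1 and FAH in each library, in the order of their steps from tyrosine (left) to fumarate and acetoacetate (right), sgSETD1A in red left of sgEmpty in blue. TAT, HPD and HGD stay near 0, with no library above 0.523 TPM, while GSTZ1 and FAH are well expressed and only GSTZ1 shows a wide step between the groups.

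Of 11 listed genes around this pathway, 8 were tested, 4 rose, none fell (limma; 0 also at an unadjusted p under 0.05) and 4 did not pass, with a median of 0.14 log2, against 0.073 over all tested genes, of which 28.0% rose and 13.5% fell. QDPR, which recycles the cofactor tetrahydrobiopterin, had 26.4, 25.2 and 24.3 TPM in sgSETD1A libraries, against 16.9, 14.8 and 15.7 TPM in sgEmpty libraries, a rise of 0.64 log2 (limma adjusted p = 8.20e-05; SE 0.062). PCBD1, which acts in the same recycling, rose by 0.17 (limma adjusted p = 0.00418) and GOT1, a cytosolic aminotransferase, by 0.27 log2 (limma adjusted p = 0.00165). OXCT1, which activates acetoacetate, rose by 0.19 log2 (limma adjusted p = 0.0157). Its call was lost without sgSETD1A 2 (adjusted p = 0.0549), sgEmpty 2 (0.0558) or sgEmpty 3 (0.0537) and after both rescalings, and that of PCBD1 after median-ratio rescaling (0.0538), which leaves 2 rises under that rescaling.

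The enzymes that make glutathione itself did not pass the test. GCLC, the catalytic subunit of the limiting enzyme, averaged 24.9 ± 0.96 TPM in sgSETD1A and 23.1 ± 0.61 TPM in sgEmpty cells (SD, n = 3 each), a difference of 0.11 log2 (limma adjusted p = 0.122; SE 0.051). Its partner subunit GCLM differed by 0.053 (SE 0.076; adjusted p = 0.603), glutathione synthetase GSS by -0.021 (SE 0.047; 0.744) and the reductase GSR by -0.048 log2 (SE 0.050; 0.460). Of 18 listed genes of glutathione synthesis and recycling, 15 were tested, 3 rose, 1 fell and 11 did not pass (median 0.053 log2), where 28.0% of all tested genes rose and 13.5% fell; without sgSETD1A 1, 5 rose. GGT5, a gamma-glutamyl transferase that cleaves glutathione conjugates, had 1.56, 2.06 and 1.90 TPM in sgSETD1A libraries, against 0.588, 0.672 and 0.686 TPM in sgEmpty libraries, a rise of 0.78 log2 (limma adjusted p = 7.09e-04; SE 0.11). At such low levels the size depends on the pseudocount: it was 1.37 with 0.1 and 0.28 with 5. GGT5 reached the filter of 1 TPM only through the sgSETD1A libraries (mean 1.84 TPM, against 0.649 TPM in sgEmpty). Its call, 1 of the 3 rises, is therefore given as a description, although it was also called with no filter (limma adjusted p = 0.00135). Its relative GGT7 rose by 0.45 and the peptidase LAP3 by 0.27 log2 (limma adjusted p = 0.00770 and 7.78e-04), and SLC3A2, the heavy subunit of the cystine transporter and of other amino acid transporters, fell by 0.21 log2 (limma adjusted p = 0.00455).

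Among 21 listed glutathione-using enzymes and exporters, 18 were tested, 3 rose, 3 fell and 12 did not pass (median -0.014 log2), where 28.0% of all tested genes rose and 13.5% fell. The glyoxalase pair, which clears methylglyoxal in successive steps with glutathione, moved in opposite directions. GLO1, the first step, averaged 200.7 ± 9.14 TPM in sgSETD1A and 161.8 ± 5.58 TPM in sgEmpty cells (SD, n = 3 each), a rise of 0.31 log2 (limma adjusted p = 5.49e-04). HAGH, the second step, averaged 39.3 ± 1.19 TPM in sgSETD1A and 50.2 ± 3.38 TPM in sgEmpty cells (SD, n = 3 each), a difference of -0.35 log2 (limma adjusted p = 0.00125). GPX3, the secreted glutathione peroxidase, had 11.6, 11.1 and 9.93 TPM in sgSETD1A libraries, against 6.63, 5.46 and 6.06 TPM in sgEmpty libraries, a rise of 0.75 log2 (limma adjusted p = 1.91e-04; SE 0.085), and the glutaredoxin GLRX rose by 0.31 log2 (0.00668). ESD, an esterase that acts on S-formylglutathione, fell by 0.18 (limma adjusted p = 0.0200) and ABCC1, which exports glutathione conjugates, by 0.16 log2 (0.0355). Without sgSETD1A 2 the ESD difference was -0.12. The call of ESD was lost without sgEmpty 1 (limma adjusted p = 0.0597) or sgEmpty 2 (0.0602), and with limma without trend (0.0535). That of ABCC1 was lost without sgSETD1A 1 (limma adjusted p = 0.0740), sgSETD1A 2 (0.0745), sgEmpty 1 (0.0951) or sgEmpty 3 (0.114), and with no filter (0.0513). Leaving out sgEmpty 1 left 1 fall.

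NRF2 (NFE2L2) drives several transferase and glutathione genes and is held back by KEAP1. Of 22 genes listed for this pathway, 4 of which stand in other lists too, 21 were tested, 6 rose, 3 fell and 12 did not pass (median 0.081 log2, against 0.073 over all tested genes). These counts are close to the background, where 28.0% of all tested genes rose and 13.5% fell. HMOX1, haem oxygenase, averaged 5.25 ± 0.34 TPM in sgSETD1A and 3.28 ± 0.35 TPM in sgEmpty cells (SD, n = 3 each), a rise of 0.55 log2 (limma adjusted p = 0.00139), or 0.31 with a pseudocount of 5. The ferritin gene FTH1 rose by 0.33 (limma adjusted p = 2.39e-05), SRXN1 by 0.25 (0.00229) and PRDX1 by 0.22 log2 (0.00122); FTH1 and PRDX1 have processed pseudogenes, so their values are uncertain. KEAP1 fell by 0.30 (limma adjusted p = 0.00979) and the pentose phosphate enzyme TKT by 0.22 log2 (0.00206). The remaining calls were smaller: NQO1 rose by 0.15 and FTL by 0.14 (limma adjusted p = 0.00343 and 0.00656), and ME1 fell by 0.17 log2 (0.0154). NFE2L2 itself did not pass, at -0.079 log2 (limma adjusted p = 0.143).

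GSTZ1 lies on chromosome 14 head to head with POMT2, a protein O-mannosyltransferase gene on the opposite strand: their RefSeq promoter windows share 252 of 300 bases. POMT2 had 35.1, 35.0 and 36.7 TPM in sgSETD1A libraries, against 34.0, 31.4 and 30.9 TPM in sgEmpty libraries. It was thus not lower where GSTZ1 was: its log2 difference was 0.15 (limma adjusted p = 0.0441; SE 0.051). That call was lost without sgSETD1A 2 (0.0740), sgSETD1A 3 (0.138), sgEmpty 2 (0.137) or sgEmpty 3 (0.139) and after median-ratio rescaling (0.295) or quantile normalization (0.133), but the difference stayed above 0 under every processing tried. Of the 10 protein-coding genes around GSTZ1, 5 on each side, 8 were tested, 2 rose (POMT2 and AHSA1), 1 fell and 5 did not pass (median 0.098 log2), close to the background, where 28.0% of all tested genes rose and 13.5% fell. AHSA1, a co-chaperone of HSP90, rose by 0.22 log2 (limma adjusted p = 0.00127), or by 0.14 with either rescaling. The fall was in C14orf133, now VIPAS39, a vesicle sorting gene, with 25.7, 25.3 and 25.9 TPM in sgSETD1A libraries, against 32.4, 32.1 and 32.2 TPM in sgEmpty libraries (-0.32 log2; limma adjusted p = 5.15e-04). TMED8, next to GSTZ1 on its other side, differed by 0.16 log2 (limma adjusted p = 0.122), SAMD15 by 0.16 (0.147), NOXRED1 by -0.11 (0.527), TMEM63C by -0.076 (0.362) and KIAA1737, now CIPC, by 0.049 (0.392). ZDHHC22 and NGB did not reach the filter, at no more than 0.777 TPM in any library.

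**Figure D5:**
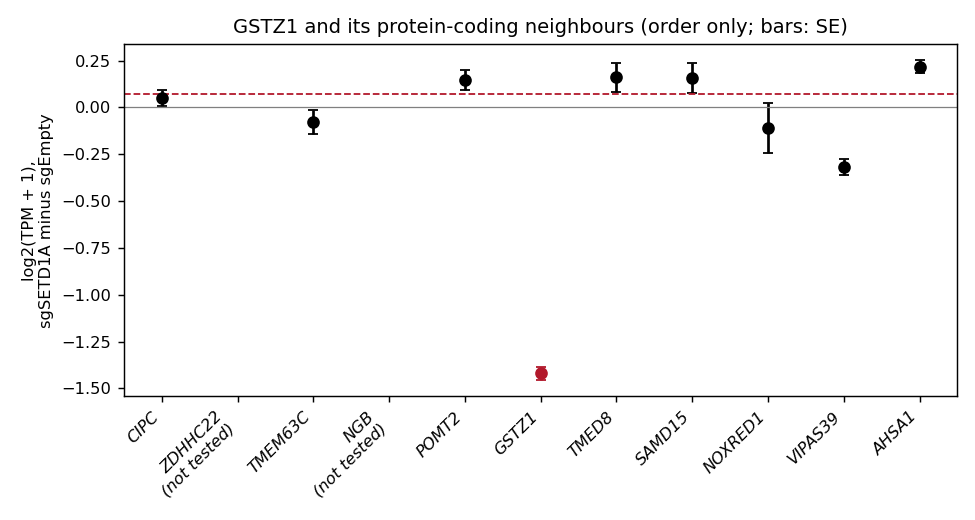
Difference in log2(TPM + 1), sgSETD1A minus sgEmpty, with its SE, for GSTZ1 (red) and the 5 protein-coding genes on each side in their order along chromosome 14; the dashed line is the median of all tested genes, 0.073. GSTZ1 at -1.42 stands alone between POMT2 at 0.15 and TMED8 at 0.16, and VIPAS39 at -0.32 is the lowest of the neighbours.

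The genes whose profile over the 6 libraries was most like that of GSTZ1 were chosen as those with the smallest root mean square distance in log2(TPM + 1), each gene centred on its sgEmpty mean. They were C11orf1, now CFAP68 (distance 0.12), UNC50 (0.12), CYB5D2 (0.13), PET112, now GATB (0.14), and ADPRHL1 (0.15). Their sgSETD1A means were 30.4%, 39.1%, 41.5%, 37.7% and 40.6% of their sgEmpty means in the same order. CYB5D2 had 24.0, 22.7 and 23.5 TPM in sgSETD1A libraries, against 56.0, 58.9 and 54.5 TPM in sgEmpty libraries. The measure takes genes with a group difference like that of GSTZ1, so these differences are a description.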

How the data were processed

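RNA was extracted with a column kit with DNase and made into libraries with a stranded mRNA kit, per the labels' protocols, from 3 sgSETD1A and 3 sgEmpty libraries. The values are TPM, a non-negative signal per gene computed and deposited by the authors. STAR 2.6.0c, RSEM 1.3.1, bcl2fastq 2.20.0 and hg19 are listed, without their roles, per the submitters' processing notes. The depth of the libraries is unknown, since TPM does not keep it, and no count test was run. The last row (1 row) named no gene, held the column total and was left out. A table of guide counts in the same series was not used here: none of its guides is named for these genes.

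Genes averaging 1 TPM or more over the 6 libraries were compared on the log2(TPM + 1) scale by limma (version 3.58.1, R 4.3.3), letting the variance follow the mean. This scale understates changes of low genes. Benjamini-Hochberg adjustment covered all 11885 tested genes, and an adjusted p under 0.05 was called. Verbs of change for genes outside the 9 members rest on that call. On simulated data with 11885 genes, 40% of changes of 0.3 log2 were recovered, 84% of those of 0.5 and 96% of those of 1. Whether these rates hold for the real libraries, where 41.5% of all tested genes passed the threshold, was not tested. Where replicates were not separate cultures, p-values cover technical spread only. The members and all lists were chosen with earlier results of these data known. Named were the members, from each list the called genes (at most the 6 largest differences) with fixed steps of tyrosine breakdown and glutathione synthesis, and 5 protein-coding neighbours of GSTZ1 on each side. Named beside that rule were SETD1A, some markers, the genes most like GSTZ1, NFE2L2, NQO1, FTL and ME1. Promoter windows and gene order came from RefSeq tables on GRCh38.p14, matched by symbol, since the expression values were made on another build. Alternatives were pseudocounts of 0.1 and 5, no filter, a minimum mean of 5 TPM, median-ratio rescaling, quantile normalization, no trend, a replicate block, and leaving out each library. One further gene, not counted in the lists, is not reported here.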

Additional observations from a re-analysis of the deposited data

How the results depend on the processing

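GSTZ1 was lower in sgSETD1A under all 14 alternatives: its log2 difference was -1.35 with a pseudocount of 5, -1.49 with median-ratio rescaling and -1.47 with quantile normalization, and ran from -1.43 to -1.41 when 1 library was left out. The other tested members kept their direction under all 14, except GSTK1, at -0.040 with median-ratio rescaling and -0.030 with quantile normalization. With median-ratio rescaling FAH was at 0.12, GSTO1 at 0.038, MGST1 at -0.20, MGST3 at 0.13, PRDX1 at 0.15, OXCT1 at 0.12, PCBD1 at 0.095 and POMT2 at 0.075, moves of over 1.5 times, and GSTO1 was at 0.067 with quantile normalization. Over all genes 1835 rose with median-ratio rescaling and 2142 with quantile normalization, and 2361 to 3459 without 1 library. Calls outside the members were followed for 28 genes, those named by the rule and SETD1A. Of these 28, 19 were called under every alternative and 7 lost the call under at least 1. GGT5 and HMOX1 were called under all but the minimum of 5 TPM, which they did not reach. None of the 28 changed direction.

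The other transferases that rose numbered 2 with no filter, after median-ratio rescaling and without trend, and 2 to 4 without 1 library. Rises in tyrosine breakdown numbered 2 after median-ratio rescaling. Falls among glutathione-using genes numbered 5 after either rescaling and 1 to 3 without 1 library, and falls in the NRF2 pathway 5 after either rescaling. Rises in glutathione synthesis numbered 3 to 5 without 1 library. Of the neighbours 1 rose with no filter, after either rescaling and without trend, and 1 to 2 without 1 library.

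The median of glutathione synthesis was -0.015 with a mean of at least 5 TPM, -0.011 with median-ratio rescaling and -0.019 with quantile normalization. That of glutathione-using genes was 0.0056 with a mean of at least 5 TPM and -0.048 to 0.027 without 1 library, at 0.00057 without sgSETD1A 1, 0.00028 without sgEmpty 1 and 0.027 without sgEmpty 3. GCLM was at -0.011 and -0.019 and KIAA1737 at -0.023 after rescaling, and GSS ran from -0.057 to 0.0054 without 1 library (0.0054 without sgEmpty 1); none of these was called. The causes were not tested.

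Deviations of same-numbered libraries from their group means correlated at 0.085, -0.104 and 0.169. Those of libraries with different numbers correlated from -0.21 to 0.139. No pairing by replicate number was seen, but so few libraries cannot exclude one. With the replicate number as a block 3103 genes rose and 1539 fell, 5 genes of glutathione synthesis and 1 neighbour rose, and POMT2 lost its call (adjusted p = 0.0690). TPM gives no depth, so the counting error of the low genes TAT, HPD and HGD is unknown.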
